A study of Mus musculus with 4 samples.

Results

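The troponin and tropomyosin genes encode the calcium switch of the thin filament, and 10 of them were followed here by gene name: Tnnt1, Tnnt2 and Tnnt3 for troponin T, Tnni1 and Tnni2 for troponin I, Tnnc1 and Tnnc2 for troponin C, and Tpm1, Tpm2 and Tpm3 for tropomyosin. These are 10 of the 32868 gene names in the data, and each has a single row per library. The tissue was tibialis anterior, a shin muscle made of fast fibres, taken from C57BL/6 mice at postnatal day 21. The Het group (2 libraries) had the genotype Nf1flox/+/Myf5+, with 1 floxed allele of Nf1, and the Nf1-KO group (2 libraries) had Nf1flox/flox/Myf5+, with 2 floxed alleles. Both groups therefore carry a floxed allele and Myf5+. The labels do not spell out Myf5+, and in such crosses it is commonly a Cre recombinase driven in muscle precursors; whether cells of other lineages kept Nf1 was not tested. Nf1 encodes neurofibromin, a protein that turns Ras off, and the series concerns its role in muscle growth and metabolism after birth. The labels do not say whether the libraries came from separate animals or from pools, so p-values measure the spread between these libraries, which may be technical.

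At rest, tropomyosin lies along actin and covers the sites that myosin binds. Calcium released into the cytoplasm binds troponin C, troponin I then lets go of actin, and troponin T passes the movement on to tropomyosin, which uncovers the sites. Fast and slow skeletal fibres use products of different genes for each subunit. Tnnt3, Tnni2 and Tnnc2 are the fast troponins, while Tnnt1, Tnni1 and Tnnc1 are the slow ones. Tnnc1 also serves the heart, and Tnnt2, the cardiac troponin T, is also made in immature skeletal muscle. Tpm1 gives the alpha tropomyosin of fast fibres and of the heart, Tpm3 the slow alpha tropomyosin, and Tpm2 the beta tropomyosin that pairs with either. All 3 tropomyosin genes also give shorter products in cells outside muscle, which a value per gene does not separate.

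Levels are given as RPKM (reads scaled to the gene's length and to the library's depth), the scale on which genes of different length can be set side by side. Replicates were tight: over 4826 genes of 5 RPKM or more, their coefficient of variation had a median of 2.03% (Het) and 1.91% (Nf1-KO). Depth is known only through the mean normalized count per gene in the authors' deposited table. For genes with 200 to 5000 such counts, the squared difference between replicates was 1.54 to 1.94 times that expected from counting alone, so the replicates were close but differed by more than sampling noise. Fold changes are from limma on log2(RPKM + 1) of scaled values and are called at a Benjamini-Hochberg adjusted p under 0.05 over 10690 tested genes. That test called 50.2% of genes, with 24.9% higher and 25.4% lower in Nf1-KO, and the median log2 fold change of all tested genes was 0.00. Nf1 itself was 1.09 and 1.01 RPKM in Het and 0.89 and 0.85 RPKM in Nf1-KO (log2 fold change -0.18, limma adjusted p 0.041). That call was lost whichever library was left out (log2 fold change -0.21 to -0.15) and with unscaled values. In the authors' deposited table Nf1 passed, with a log2 fold change of -0.38 (adjusted p 0.0026). The markers of fast muscle were abundant in every library: Ckm, Acta1, Myh4, Pvalb, Mylpf and Actn3 summed to 42029 to 42092 RPKM in Het and 28900 to 29130 RPKM in Nf1-KO, and each of the 6 was lower in Nf1-KO.

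Only RNA was measured here, not protein. By share of RPKM, troponin transcripts were almost wholly the fast ones in both groups, and tropomyosin transcripts almost wholly those of Tpm1 and Tpm2. Within that setting all 10 genes were called as different between the groups, against 50.2% of all tested genes. The 4 fast genes (Tnnt3, Tnni2, Tnnc2 and Tpm1) were lower in Nf1-KO, with log2 fold changes of -0.81 to -0.18 and a median of -0.31. The 4 slow genes (Tnnt1, Tnni1, Tnnc1 and Tpm3) were higher, with log2 fold changes of 0.36 to 0.78 and a median of 0.45. Tnnt2 and Tpm2 were higher too, so that 6 genes were higher and 4 lower (median log2 fold change 0.24). All 10 passed the filter on low values. In each of the 10 genes the values as deposited did not overlap between the groups, as in 77.3% of all tested genes. The authors' deposited table called 8 of the 10, each in the same direction, against 31.6% of all its genes. The 2 that it did not call were Tnni1 (adjusted p 0.052) and Tnnc1 (0.14).

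**Figure D1:**
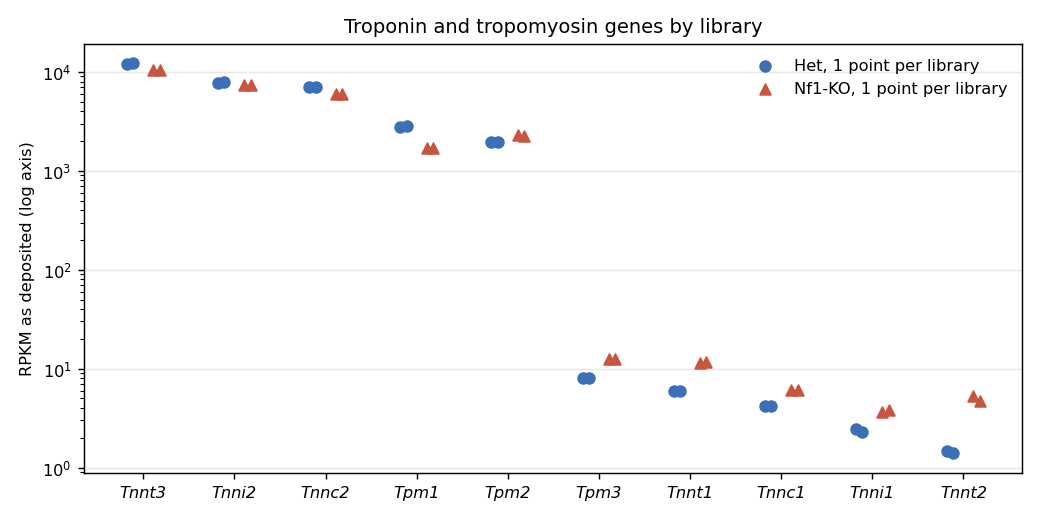
RPKM as deposited of the 10 genes in each library, on a log axis; blue circles are the 2 Het libraries and red triangles the 2 Nf1-KO libraries. The 3 fast troponins and Tpm1 and Tpm2 lie above 1000 RPKM, the slow isoforms and Tnnt2 below 13, and in no gene do the groups overlap.

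The tropomyosins showed the only exchange between major products of a family. Tpm1 was 2779 and 2820 RPKM in Het and 1712 and 1707 RPKM in Nf1-KO. It was the more abundant tropomyosin in both Het libraries and fell to 0.611 times its Het mean. The log2 fold change was -0.81 (standard error 0.0153, 95% interval -0.84 to -0.77, limma adjusted p 5.7e-07). Tpm2, its beta partner, was 1952 and 1981 RPKM in Het and 2284 and 2277 RPKM in Nf1-KO. It rose by a log2 fold change of 0.12 (standard error 0.0153, 95% interval 0.08 to 0.16, limma adjusted p 0.0011). The rise of Tpm2 was smaller than the fall of Tpm1: the RPKM means differed by 314 for Tpm2 and by -1090 for Tpm1. With unscaled values the log2 fold change of Tpm2 was 0.21 in place of 0.12. The tropomyosin genes are close in sequence, and how the counting split reads shared between them is not given in the sources used here.

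As a share of the summed RPKM of Tpm1, Tpm2 and Tpm3, Tpm1 made up 58.6% in both Het libraries and 42.7% in both Nf1-KO libraries. Tpm2 went from 41.2% in both Het libraries to 57.0% in both Nf1-KO libraries. The order of both products was thus inverted, and the ratio of Tpm1 to Tpm2 went from 1.42 to 0.750. Shares do not depend on how libraries are scaled. An exact two-sided permutation test of 2 libraries against 2 gave p = 0.333, the smallest it can give, as it did for every share, ratio and total reported here.

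Tpm3, the slow alpha tropomyosin, was 8.09 and 8.12 RPKM in Het and 12.6 RPKM in each Nf1-KO library. The Nf1-KO libraries were both above the Het libraries, and the log2 fold change was 0.49 (standard error 0.0341, limma adjusted p 8.2e-05). Its share of tropomyosin RPKM went from 0.170% ± 0.00131 (SD, n = 2) to 0.315% ± 0.000252 (SD, n = 2), so it stayed a trace product. Tpm4, the remaining gene of the family, is known from cells outside skeletal fibres and did not share the rise. It was 13.5 and 13.8 RPKM in Het and 13.5 and 12.3 RPKM in Nf1-KO, so the groups overlapped. Its log2 fold change of -0.17 passed (limma adjusted p 0.030) but was lost with unscaled values (adjusted p 0.22), with no filter (0.093), with no variance trend (0.057) and in the authors' deposited table (0.062). It was also lost without Het replicate 1, Het replicate 2 or Nf1-KO replicate 2 (adjusted p 0.070, 0.10 and 0.15).

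The sequences before the starts of both major tropomyosins are shown because they are the pair that changed places. They are the 250 bases before the RefSeq start (GRCm38.p6), 5′ to 3′ along the gene. Capitals mark the E-box CANNTG, the site of MyoD-family factors, and the MCAT element CATTCC, the site of TEAD factors, searched on both strands (GGAATG is MCAT on the other strand).
Tpm1, chr9:67049214-67049463, minus strand: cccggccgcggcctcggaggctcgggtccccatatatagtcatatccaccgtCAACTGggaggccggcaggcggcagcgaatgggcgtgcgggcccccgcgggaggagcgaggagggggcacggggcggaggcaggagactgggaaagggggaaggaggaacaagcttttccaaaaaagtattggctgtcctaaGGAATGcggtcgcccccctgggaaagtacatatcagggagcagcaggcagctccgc
Tpm2, chr4:43523555-43523804, minus strand: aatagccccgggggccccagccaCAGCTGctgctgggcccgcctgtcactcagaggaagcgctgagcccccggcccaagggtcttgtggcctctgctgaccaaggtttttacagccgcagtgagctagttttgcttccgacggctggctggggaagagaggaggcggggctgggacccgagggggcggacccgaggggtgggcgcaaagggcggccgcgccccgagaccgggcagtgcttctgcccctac
Tpm1 has 1 E-box and 1 MCAT match in this window, and Tpm2 has 1 E-box and no MCAT match. An E-box match stands in 66.2% and an MCAT match in 12.6% of the 32851 windows of this length, and no E-box overlapped an MCAT match in the genes studied.

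**Figure D2:**
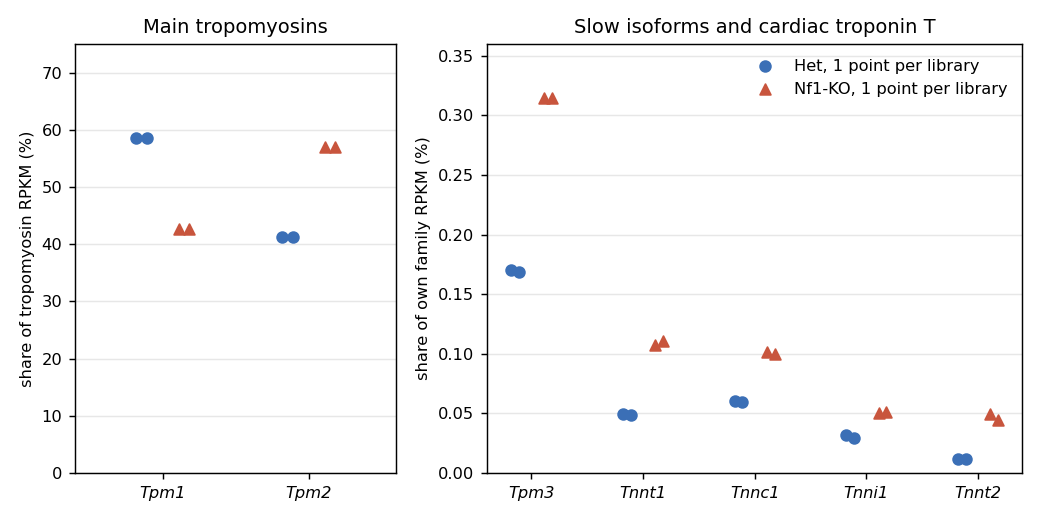
Share of each isoform in the summed RPKM of its family, in percent, per library (circles Het, triangles Nf1-KO). Left, Tpm1 and Tpm2 change order, from 58.6% and 41.2% to 42.7% and 57.0%; right, on a scale of up to 0.36%, the slow isoforms and Tnnt2 are higher in both Nf1-KO libraries.

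Troponin T, the subunit that ties the complex to tropomyosin, came almost wholly from Tnnt3. Tnnt3 was 12109 and 12184 RPKM in Het and 10575 and 10588 RPKM in Nf1-KO, and by mean level it ranked 8 among all genes in both groups. Both Nf1-KO libraries were below both Het libraries, with a log2 fold change of -0.29 (standard error 0.0130, limma adjusted p 1.3e-05). Its share of troponin T was 99.9% in Het and 99.8% in Nf1-KO.

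Tnnt1, the slow troponin T, rose from a low level. It was 5.95 and 5.91 RPKM in Het and 11.4 and 11.8 RPKM in Nf1-KO, or 1.95 times the Het mean. Its log2 fold change was 0.78 (standard error 0.0376, 95% interval 0.68 to 0.87, limma adjusted p 1.8e-05). The share of Tnnt1 in troponin T rose from 0.0488% ± 0.000444 (SD, n = 2) to 0.109% ± 0.00224 (SD, n = 2).

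Tnnt2, the cardiac troponin T, had the largest fold change of the 10 genes. It was 1.46 and 1.39 RPKM in Het and 5.23 and 4.75 RPKM in Nf1-KO. Both Nf1-KO libraries were well above both Het libraries, at 3.50 times the Het mean. The log2 fold change was 1.24 (standard error 0.0598, 95% interval 1.09 to 1.38, limma adjusted p 1.8e-05), against 1.81 for the log2 ratio of the deposited means. It was 1.65 with a pseudocount of 0.1 and 1.30 with unscaled values, so both the pseudocount and the scaling lower it. The authors' deposited table gave 1.70 (standard error 0.221) on a mean of 187 normalized counts. In Nf1-KO, Tnnt2 lay just under Tnnc1 and above Tnni1 in level, while in Het it was the lowest of the 10. Its share of troponin T rose from 0.0117% ± 0.000458 (SD, n = 2) to 0.0471% ± 0.00324 (SD, n = 2).

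Beside the rise of Tnnt2, markers of heart muscle and of immature fibres were mixed. Of all tested genes, 24.9% were called higher and 25.4% lower. Of 6 cardiac markers, Nppb and Myl7 were listed at 0 in all 4 libraries and Tnni3, the cardiac troponin I, was at most 0.08 RPKM. The cardiac list summed to 6.00 to 6.48 RPKM in Het and 9.23 to 9.33 RPKM in Nf1-KO, most of it Myl4, an atrial and embryonic light chain (4.85 to 5.32 and 6.83 to 6.84 RPKM). Its 2 tested genes, Myl4 and Myh6, were both higher, with log2 fold changes of 0.29 and 0.63, though Myl4 did not pass in the authors' deposited table (adjusted p 0.17). Actc1, the cardiac actin, is not on this list and went the other way. It was 39.31 and 39.13 RPKM in Het and 19.98 and 18.58 RPKM in Nf1-KO. Of 6 markers of satellite cells and regenerating fibres, 5 could be tested, and 2 were higher and 1 lower. Myog, a factor of differentiating myoblasts, rose by a log2 fold change of 1.44, and Myh3, embryonic myosin, by 0.25 (not past the threshold without Nf1-KO replicate 2, adjusted p 0.058). Myh8, perinatal myosin, fell by 0.51 in its most abundant row, and by 0.47 with all rows of that name summed. The authors' deposited table lists Myh8 at 1.02, so its direction is uncertain. This list summed to 97.6 to 104 RPKM in Het and 82.4 to 85.8 RPKM in Nf1-KO, but most of the sum is Myh8. Without Myh8 it went the other way, from 11.04 and 11.09 RPKM in Het to 18.04 and 16.41 RPKM in Nf1-KO. The part of either cell type in the rise of Tnnt2 was not tested.

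The windows before both troponin T genes that rose are shown in the same way, since they had the largest increases. RefSeq lists 2 starts for Tnnt2, and the upstream one is printed.
Tnnt2, chr1:135836084-135836333, plus strand: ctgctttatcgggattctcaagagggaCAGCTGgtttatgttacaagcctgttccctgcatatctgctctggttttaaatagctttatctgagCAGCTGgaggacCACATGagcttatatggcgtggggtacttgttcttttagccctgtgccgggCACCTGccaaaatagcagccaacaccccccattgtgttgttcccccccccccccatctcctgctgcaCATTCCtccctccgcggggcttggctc
Tnnt1, chr7:4515976-4516225, minus strand: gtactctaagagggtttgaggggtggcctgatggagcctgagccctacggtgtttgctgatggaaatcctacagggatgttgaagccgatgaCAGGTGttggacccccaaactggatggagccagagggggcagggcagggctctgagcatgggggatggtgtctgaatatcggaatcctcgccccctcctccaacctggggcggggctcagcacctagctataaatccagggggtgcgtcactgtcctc
The printed window of Tnnt2 has 4 E-box matches and an MCAT match that begins 27 bases before the start. The window of its other start has 1 E-box match and no MCAT match. Tnnt1 has 1 E-box match and no MCAT match, and it is the only one of the 11 windows, of 8 of the 10 genes, with the TATA-box letters TATAAA (found in 12.4% of all windows). An E-box match stood in all 11 windows, of which the 2 of Tnni1 overlap. An MCAT match stood in 3, those of Tnnc1, Tpm1 and the upstream start of Tnnt2, which include genes that rose and a gene that fell. Tnni2 and Tnnt3, both fast genes that fell, had no window.

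Over the 4 libraries, the genes of at least 100 RPKM whose log2 profile, centred on its mean, lay nearest to that of Tnnt2 were Lmod2, Gpx3 and Cd36. Their Euclidean distances were 0.115, 0.116 and 0.121 among 399 such genes. Lmod2, a leiomodin that elongates thin filaments, was 75.4 and 77.2 RPKM in Het and 196 and 199 RPKM in Nf1-KO. With only 4 libraries in 2 groups, this likeness mostly restates the difference between the groups.

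Troponin I, the inhibitory subunit, had the smallest fall of its fast gene. Tnni2, the fast form, was 7790 and 7867 RPKM in Het and 7316 and 7419 RPKM in Nf1-KO. The groups did not overlap, and the log2 fold change was -0.18 (standard error 0.0145, limma adjusted p 1.5e-04). With unscaled values it was -0.09, still past the threshold. Tnni1, the slow form, was 2.48 and 2.30 RPKM in Het and 3.67 and 3.79 RPKM in Nf1-KO. Its log2 fold change was 0.41 (standard error 0.0531, limma adjusted p 0.0012), and in the authors' deposited table, where it rests on a mean of 160 normalized counts, it was 0.54 with a standard error of 0.225. The share of Tnni1 in the family rose from 0.0305% ± 0.00184 (SD, n = 2) to 0.0506% ± 0.000654 (SD, n = 2). Tnni3 added nothing of size to either group.

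Troponin C, the calcium sensor, followed the same division. Tnnc2, the fast form, was 6991 and 7067 RPKM in Het and 6020 and 6014 RPKM in Nf1-KO. Both Nf1-KO libraries were lower, with a log2 fold change of -0.32 (standard error 0.0139, limma adjusted p 1.2e-05). Exons of Tnnc2 overlap those of Ube2c on the opposite strand in GENCODE M21, but Ube2c held at most 0.32 RPKM. Tnnc1, the slow and cardiac form, was 4.20 and 4.23 RPKM in Het and 6.11 and 6.03 RPKM in Nf1-KO. It rose by a log2 fold change of 0.36 (standard error 0.0422, limma adjusted p 7.6e-04), and its share of troponin C rose from 0.0599% ± 0.000157 (SD, n = 2) to 0.101% ± 0.000867 (SD, n = 2). The authors' deposited table gave 0.42 with a standard error of 0.217 on a mean of 171 normalized counts.

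**Figure D3:**
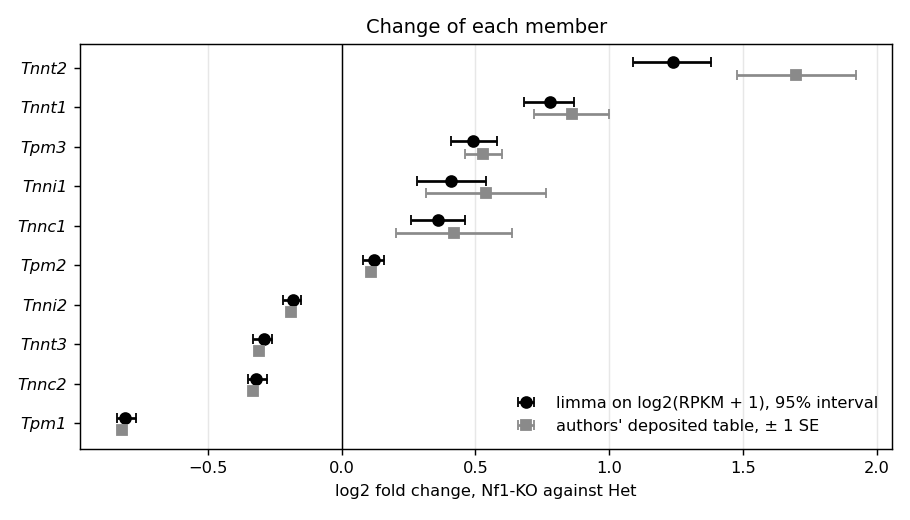
Log2 fold change of each gene in Nf1-KO against Het; black circles are limma on log2(RPKM + 1) with 95% intervals and grey squares the authors' deposited table with 1 standard error. Tpm1 is lowest at -0.81 and Tnnt2 highest at 1.24, and the 2 sources differ most for Tnnt2 (1.24 and 1.70).

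Ordered by fold change, the genes ran from Tpm1 through Tnnc2, Tnnt3, Tnni2, Tpm2, Tnnc1, Tnni1, Tpm3 and Tnnt1 to Tnnt2. The 95% intervals of Tnnc2 (-0.35 to -0.28) and Tnnt3 (-0.33 to -0.26) overlapped. Those of Tnnc1 (0.26 to 0.46), Tnni1 (0.28 to 0.54) and Tpm3 (0.41 to 0.58) overlapped too, so the order within either set is not beyond the error. The interval of Tpm1 lay apart from those of the fast troponins. Those of Tnnt1 and Tnnt2 lay apart from the other slow genes and from each other.

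Troponin I genes lie beside troponin T genes in the genome. Tnni2 and Tnnt3, with Lsp1 as the only coding gene between them on chromosome 7, both fell. Tnni1 and Tnnt2, with only Lad1 between them on chromosome 1, both rose. Lsp1, a leukocyte gene, did not pass (log2 fold change -0.03, limma adjusted p 0.69, 2.58 to 2.84 RPKM over the libraries), and Lad1 was at most 0.03 RPKM. Tnnt1 and Tnni3 are direct neighbours on chromosome 7, and Tnnt1 rose while Tnni3, too low to be tested, was 0.07 and 0.08 RPKM in Het and 0.03 and 0.02 RPKM in Nf1-KO. These loci were looked at after the values were known.

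Summed over isoforms, all 4 families had lower totals in Nf1-KO. Troponin T fell from 12154 ± 52.6 to 10598 ± 9.15 RPKM (SD, n = 2), troponin C from 7033 ± 53.8 to 6023 ± 4.31 RPKM and tropomyosin from 4774 ± 49.4 to 4003 ± 8.03 RPKM. Troponin I fell from 7831 ± 54.1 to 7371 ± 72.4 RPKM, to 0.941 times its Het level against 0.839 to 0.872 for the other families. Of the RPKM summed over all gene names kept, with 1 row per name, the 10 genes made up 6.43% in Het and 5.53% in Nf1-KO. The gain of the 4 slow genes was small beside this loss: their sum went from 20.6 to 34.0 RPKM while that of the 4 fast genes went from 29803 to 25675 RPKM.

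The balance between the subunit transcripts shifted with these totals. Troponin I over troponin C was 1.11 in both Het libraries and 1.21 and 1.23 in Nf1-KO. Troponin T over troponin I was 1.55 in both Het libraries and 1.45 and 1.43 in Nf1-KO. Troponin I over tropomyosin rose from 1.64 ± 0.00564 to 1.84 ± 0.0218 (SD, n = 2). Troponin T over troponin C moved less, from 1.73 ± 0.00574 to 1.76 ± 0.00278 (SD, n = 2). In each ratio the groups did not overlap.

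**Figure D4:**
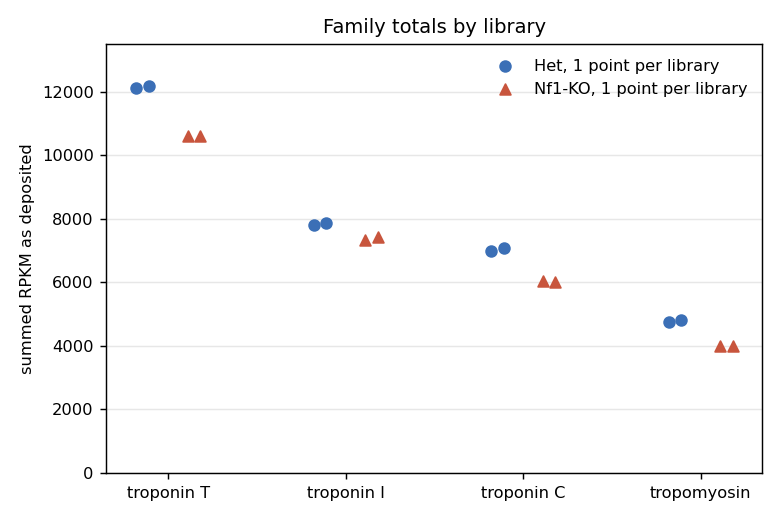
Summed RPKM as deposited of each family (troponin T, troponin I, troponin C, tropomyosin) in each library, on an axis from 0; circles are Het and triangles Nf1-KO. Every family is lower in both Nf1-KO libraries, troponin I by the smallest proportion.

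The slow over fast ratios of these genes were set beside those of 8 other pairs of the sarcomere and of calcium handling. All genes of the 8 other pairs also belong to the fast and slow fibre lists below, written with earlier results of these data known. The pairs and those lists are therefore not separate observations. Among single tested genes, 77.3% had values as deposited that did not overlap between the groups. The log2 ratio of slow to fast RPKM was higher in both Nf1-KO libraries in all 12 pairs as they were drawn up, with Myh4 as the fast myosin. With another fast myosin in its place the myosin pair reversed: the log2 ratio changed by -0.79 for Myh7 over Myh1 and by -1.04 for Myh7 over Myh2. The increase was 1.35 for Tpm3 over Tpm1, 1.16 for Tnnt1 over Tnnt3, 0.75 for Tnnc1 over Tnnc2 and 0.73 for Tnni1 over Tnni2. Calsequestrin (Casq2 over Casq1, 3.10), alpha-actinin (Actn2 over Actn3, 2.02), myosin-binding protein C (Mybpc1 over Mybpc2, 1.89) and Myoz2 over Myoz1 (1.78) moved further. The smallest increases were 0.72 for Myl2 over Mylpf and 0.53 for the calcium pumps Atp2a2 over Atp2a1. The pairs also differed in which side moved. On the deposited means, the slow gene changed by more than the fast one in all 3 troponins: the log2 ratios of Nf1-KO to Het were 0.96 and -0.20 in troponin T, 0.64 and -0.09 in troponin I, and 0.53 and -0.22 in troponin C. In tropomyosin Tpm3 (0.64) and Tpm1 (-0.71) were closer in size. On the scaled log2(RPKM + 1) values the sizes were 0.36 and -0.32 in troponin C and 0.49 and -0.81 in tropomyosin, so this order depends on the scale. In Myh7 over Myh4 (0.82) only the fast gene passed, since slow Myh7 did not (log2 fold change -0.16, limma adjusted p 0.066). These differences between pairs were not tested.

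**Figure D5:**
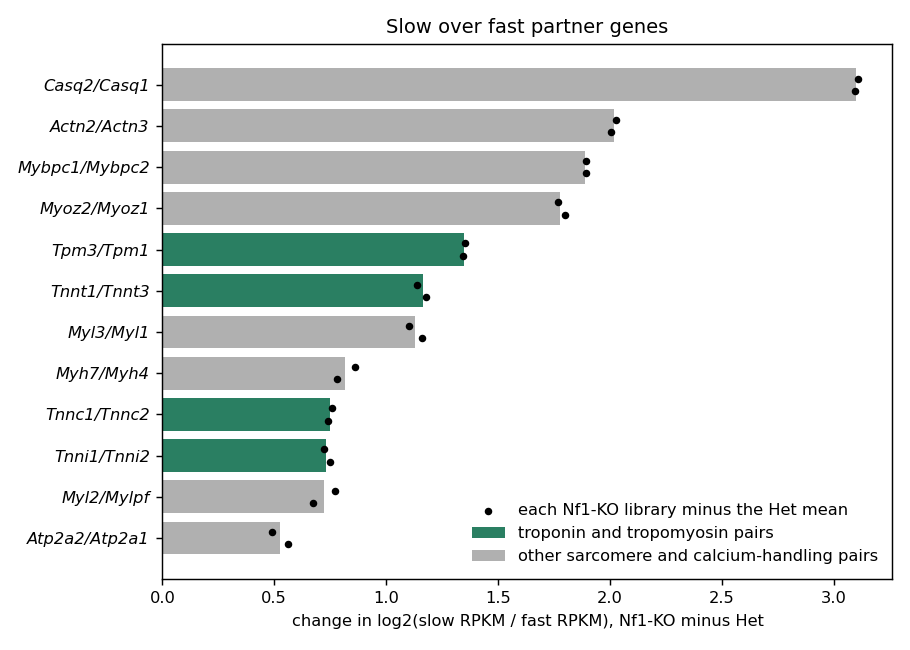
Change in the log2 ratio of slow to fast RPKM, Nf1-KO mean minus Het mean (bars), for 12 gene pairs, with each Nf1-KO library as a black point. The 4 troponin and tropomyosin pairs (green) lie between 0.73 and 1.35, inside the range of 0.53 to 3.10 of the other pairs (grey).

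Other genes of the thin filament were mixed. Of 15 partners, 14 could be tested, with 5 higher, 8 lower and a median log2 fold change of -0.17. With no filter and with no variance trend, 3 were higher and 8 lower, and Tmod4 lost its call in both. With unscaled values 5 were higher and 7 lower. Of all tested genes, 24.9% were higher and 25.4% lower. Lmod2 rose by 1.27, while Actc1, the cardiac actin, fell by 1.08, Tmod1, which caps the pointed end, fell by 0.53, and Acta1, skeletal actin, fell by 0.45 on the log2 scale. Of 13 fast fibre genes, 11 were lower and 2 higher (median -0.45), against 25.4% and 24.9% of all tested genes. The 2 that rose are both fast myosins, Myh1 at 0.52 and Myh2 at 0.77, named here after their values were seen. Pvalb, Actn3, Mybpc2 and Casq1 had the steepest falls, with log2 fold changes of -1.72, -1.35, -1.21 and -1.15. The 11 that fell reached up to -0.17 (Ckm, creatine kinase), so Tnnt3 (-0.29), Tnni2 (-0.18) and Tnnc2 (-0.32) lay inside the range of this list, toward its shallow end. Of 13 slow fibre genes, 9 were higher and 2 lower (median 0.28), against 24.9% and 25.4% of all tested genes. Among them were Sln at 3.20, Casq2 at 1.86, Myoz2 at 1.48 and Csrp3 at -1.80. Both fibre lists were written with earlier results of these data known.

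In a list of genes that release calcium onto troponin C, also written with earlier results known, all 9 genes reported were lower, against 25.4% of all tested genes (median log2 fold change -0.28). Jph1 lost its call with unscaled values, and the 9 calls held in the other 12 settings. The largest falls were those of Jph2, a junctophilin, at -0.75, Asph at -0.50, Srl at -0.35 and Stac3, a partner of the voltage sensor, at -0.28. Among regulators of fast and slow fibres, 4 of 17 tested were higher and 5 lower, with a median of -0.03. With unscaled values 6 were higher and 4 lower. Of all tested genes, 24.9% were higher and 25.4% lower. Vgll2, a TEAD cofactor, rose by 0.58 and Ppargc1a by 0.37, while Nfatc2 and Sox6, a repressor of slow genes, had log2 fold changes of -0.50 and -0.48. Splicing factors, which choose exons in troponin T and tropomyosin transcripts, were mostly without a call: 1 of 11 tested was higher and 3 were lower (median -0.01). Celf1 was at -0.46, Rbfox2 at 0.32, Rbm20 at -0.27 and Mbnl1 at -0.19, the last not past the threshold with unscaled values (adjusted p 0.076).

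Markers of other cells, which can hold Tpm1, Tpm2, Tpm3 and Tpm4, also differed between the groups. Of all tested genes, 24.9% were called higher in Nf1-KO and 25.4% lower. Smooth muscle markers summed to 50.2 to 51.6 RPKM in Het and 58.9 to 59.1 RPKM in Nf1-KO, with 2 of 5 tested higher (Acta2 at 0.38, Smtn at 0.19) and 2 lower (Lmod1 at -0.59, Tagln at -0.16). Tagln did not pass with unscaled values or in the authors' deposited table. Fibroblast markers summed to 91.3 to 93.9 and 135 to 136 RPKM, with 5 of 6 higher. Schwann cell markers summed to 14.7 to 15.2 and 32.8 to 34.0 RPKM, with 5 of 5 higher, and immune cell markers to 8.59 to 8.86 and 27.5 to 27.6 RPKM, with 3 of 3 tested higher and Adgre1 listed at 0. Endothelial markers summed to 69.7 to 70.0 and 74.8 to 75.7 RPKM, with 2 of 5 higher (Pecam1 at 0.09, Tek at 0.15) and 1 lower. Both rises were lost with no filter and in the authors' deposited table, and each in 3 of the 4 fits that left out a library. Pecam1 was also lost with the replicate block (adjusted p 0.054) and with no variance trend (0.11). Adipocyte markers summed to 2.25 to 2.38 and 2.28 to 2.48 RPKM, with 1 of 2 tested higher (Cidec, adjusted p 0.067 in the authors' deposited table). There, 4 of 6 fibroblast, 4 of 5 Schwann cell and 3 of 4 immune cell markers with a value were higher. That table called 31.6% of all its genes, in either direction. In the same libraries Tpm1 and Tpm2 were at least 1707 RPKM and Tpm3 was 8.09 to 12.6 RPKM. A sum of markers does not measure how much tropomyosin RNA such cells hold. The part of these cells in the tropomyosin changes was not tested. In whole muscle, fewer cells of a type and less RNA per cell cannot be told apart.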

How the data were processed

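The authors deposited 1 value per gene for each of 4 libraries, 34682 rows each, and a comparison table. Per the submitters' processing notes, STAR 2.4.2a, DESeq2 and mouse build mm9 were used; the counting program, annotation, read strand and treatment of reads shared by similar genes are not given in the sources used here. Per the labels, libraries were made from total RNA with a TruSeq kit. The unit is not named, and the deposited values were read as RPKM from their size and decimals (sums of 532315 to 547144). Per the file headers, the authors' table holds a mean signal (read counts divided by size factors), a log2 fold change, its standard error, a score (their quotient) and p-values, raw and adjusted; its sign was read as Nf1-KO against Het, since 98.3% of genes shared the sign found here. RPKM keeps no count, so no counting interval is given.

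Rows with a number for a name (33) were dropped, and of rows sharing a name the most abundant was kept (1781 rows were copies; none of a member). Libraries were scaled by a trimmed mean of log ratios without weights (cutting 30% of the ratios and 5% of the abundances from either end; factors 0.969, 0.967, 1.03 and 1.03). Genes reaching 0.5 RPKM in 2 or more libraries were tested two-sided with limma 3.58.1 (R 4.3.3), its variance trend on, over log2(RPKM + 1), a scale that understates changes of low genes. The script was tested on simulated data. Shares, ratios and levels use values as deposited, with an exact two-sided permutation test (SciPy 1.17.1). All members were named, and of each list at most the 4 called genes of largest fold change, plus the 3 genes nearest in profile to the member of largest change. The members and lists were chosen with earlier results of these data known, and 1 gene of a list is not reported here. Overlaps and neighbours are from GENCODE M21 and RefSeq, both GRCm38, used for names; printed windows are RefSeq's, on GRCm38.p6. The alternatives were other scalings, pseudocounts, filters and variance models, a replicate block, summed copies, wider families, leaving out each library, and the authors' table.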

Additional observations from a re-analysis of the deposited data

How the results depend on the processing

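All 10 genes kept their direction and their call in each of the 12 settings of the fit, leave-outs included, and kept direction in the authors' deposited table, where Tnni1 and Tnnc1 did not pass. Genes called over the whole table ran from 4235 to 5643 against 5371. With unscaled values the median log2 fold change of tested genes was 0.07 and 66.6% of called genes were higher, against 49.5%. Libraries of the same number did not deviate together (correlation -0.018 over genes). In the fit with a replicate block, 5235 genes and all 10 members were called, and Nf1 (-0.18) was not. Nf1 also lost its call with unscaled values (-0.13), with no filter (-0.19) and without each library (-0.21 to -0.15). Fewer samples stand behind the last, and for the others the cause was not tested. In the authors' deposited table Nf1 passed (-0.38, adjusted p 0.0026). With Tpm4 counted in the family, the changes in share were -15.9 percentage points for Tpm1 and 15.7 for Tpm2, against -15.9 and 15.8. A pseudocount of 1 lowers the increase in slow over fast log2 ratio by construction, to 1.06 for Tnnt1 over Tnnt3, 0.57 for Tnni1 over Tnni2, 0.66 for Tnnc1 over Tnnc2 and 1.29 for Tpm3 over Tpm1. Myh8 reversed in the authors' deposited table (1.02), cause not tested. In alternatives chosen after seeing the data, the change in log2 ratio of Myh7 over a fast myosin reversed from 0.82 with Myh4 to -0.79 with Myh1 and -1.04 with Myh2, since the fast genes moved in opposite directions, and the summed markers of satellite cells and regenerating fibres reversed from -16.8 to 6.16 RPKM without Myh8. The slow troponins and Tnnt2 rest on means of 160 to 423 normalized counts, which limits their precision.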
